A study of Mus musculus with 6 samples.

Results

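Tumor necrosis factor (TNF), interleukin-6 (IL-6), interleukin-10 (IL-10) and related macrophage cytokines were followed across 6 RNA-seq libraries of mouse bone marrow-derived macrophages (BMDMs). The 10 genes were taken by symbol from the 54446 gene IDs of the count table: Tnf, Tnfsf9, Tnfsf10, the TNF receptor Tnfrsf1b, Il6, Osm, Lif, Il10, Il15 and Tgfb1. The list was given by name, without a threshold on these data, but it was chosen with earlier results of these data known. Each of the 10 symbols had a row of counts. BMDMs were grown for 7 days from bone marrow of male BALB/c mice aged 6 to 8 weeks, in medium with 20% L929-conditioned medium, which supplies CSF-1. Unpolarized M0 cells, M1 cells (IFN-γ at 20 ng/mL and LPS at 50 ng/mL) and M2 cells (IL4 at 20 ng/mL) each received DMSO (control) or regorafenib, a multikinase inhibitor. Regorafenib (1 µM) was added 1 hour ahead of the polarizing stimuli, which were left on for 24 hours. Each condition is 1 library, and the number of mice behind each library is not given in the sources used here. No difference below between a pair of libraries therefore has a replicate check, and each compares those libraries rather than the conditions.

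The libraries held 25359309 to 34898342 counts. Counts were scaled with TMM and are given as CPM, which relate a gene's counts to the scaled size of its library. Intervals of ratios are 95% intervals from the counts alone, so they cover counting error only. A gene is called higher or lower where its ratio was at least 2-fold and at least 1 of the 2 libraries held 10 counts. All 8 macrophage markers examined were detected in every library, from 229 counts upward. T cell and NK cell markers stayed at 1 count or fewer, and B cell markers at 4 or fewer. The 6 neutrophil markers summed to 2604 to 5220 counts, mostly from the granule gene Mpo (2064 to 5124). Ly6g was at 0 in every library, and Elane and S100a9 held at most 11 counts. S100a8 held 123 and 91 counts in M0 (control and regorafenib), 1804 and 489 in M1, with 68 and 39 in M2, and Camp held 108 and 91 in M1 and at most 1 elsewhere. The dendritic cell marker sum was 828 and 936 counts in the M1 libraries (780 and 827 of them from Ccr7) and 9 to 70 in the others. Fibroblast marker sums were 98 in the M0 control, 336 in M0 with regorafenib and 130 to 229 in the others. The part of these cells in the results was not tested. In bulk RNA, fewer cells of a type and less RNA per cell cannot be told apart.

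TNF is made by macrophages within minutes to hours of LPS sensing, through NF-κB and MAP kinase signalling, and acts on the receptors encoded by Tnfrsf1a and Tnfrsf1b. IL-6, oncostatin M (Osm) and LIF signal through the shared chain gp130 (Il6st) to STAT3. IL-10 also signals through STAT3, but it restrains macrophage activation and cytokine output, while TGF-β1 is stored in a latent complex and dampens immune responses once released. The mRNAs of several of these cytokines are short-lived, because proteins such as tristetraprolin (Zfp36) bind AU-rich elements in them.

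Promoter sequences from RefSeq (GRCm38.p6) matched 6 of the 10 genes: Tnf, Il6, Lif, Tgfb1, Tnfsf10 and Tnfrsf1b. The Il6, Tnf and Tnfrsf1b sequences are shown because these were the 3 highest of the genes in the M1 libraries. They are the 250 bases before the start of Il6 (chr5:30012864-30013113, + strand), Tnf (chr17:35202008-35202257, − strand) and Tnfrsf1b (chr4:145246871-145247120, − strand), written 5′ to 3′ with motif matches in capitals.
Il6: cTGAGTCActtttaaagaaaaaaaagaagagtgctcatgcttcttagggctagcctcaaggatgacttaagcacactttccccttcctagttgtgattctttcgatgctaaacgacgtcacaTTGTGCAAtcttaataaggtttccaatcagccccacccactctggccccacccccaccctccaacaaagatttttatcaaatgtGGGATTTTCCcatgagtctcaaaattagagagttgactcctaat
Tnf: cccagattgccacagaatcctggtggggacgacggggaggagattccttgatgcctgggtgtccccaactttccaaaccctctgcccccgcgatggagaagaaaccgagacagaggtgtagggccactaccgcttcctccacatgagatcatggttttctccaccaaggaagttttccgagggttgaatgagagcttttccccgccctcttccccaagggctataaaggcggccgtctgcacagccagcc
Tnfrsf1b: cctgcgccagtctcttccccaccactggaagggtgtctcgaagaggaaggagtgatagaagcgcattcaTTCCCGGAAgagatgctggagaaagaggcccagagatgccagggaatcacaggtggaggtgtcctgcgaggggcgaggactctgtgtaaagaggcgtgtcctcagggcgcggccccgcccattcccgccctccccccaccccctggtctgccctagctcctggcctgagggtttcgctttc
The motifs searched on both strands were AP-1 (TGANTCA), the cAMP response element (TGACGTCA), GAS, the STAT site (TTCNNNGAA), C/EBP (TTGCNNAA) and the NF-κB consensus. Il6 held an NF-κB match 35 to 44 bases before the start, a C/EBP match 121 to 128 bases before it and an AP-1 match 243 to 249 bases before it. Tnfrsf1b held a GAS match 173 to 181 bases before the start, and Lif, not shown, an AP-1 match. The windows of Tnf, Tgfb1 and Tnfsf10 held none of these letters, and no match overlapped another. Among 32851 promoter windows of the same length, 3.90% held the NF-κB consensus, 9.56% C/EBP, 6.75% AP-1, 7.02% GAS and 1.55% the cAMP response element. A match describes the letters only.

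Across the 6 libraries the genes fell into very different ranges. Tnf, Il6 and Tnfrsf1b passed 1000 CPM in M1, Tgfb1 stayed within 174 to 250 CPM everywhere, and Il10, Lif and Tnfsf10 never passed 20 CPM. On the scale of CPM per kb of exon, which allows genes to be compared, Tnfrsf1b was the highest of the 10 in the 4 M0 and M2 libraries (83.9 to 303 CPM per kb). In both M1 libraries Tnf was highest (1139 and 1740), followed by Tnfrsf1b (980 and 952) and Il6 (596 and 668). Tgfb1 was second in the 4 M0 and M2 libraries (46.9 to 49.5 CPM per kb) and behind those 3 genes in the M1 libraries (34.5 and 36.6). These orders have no replicate spread beside them.

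**Figure D1:**
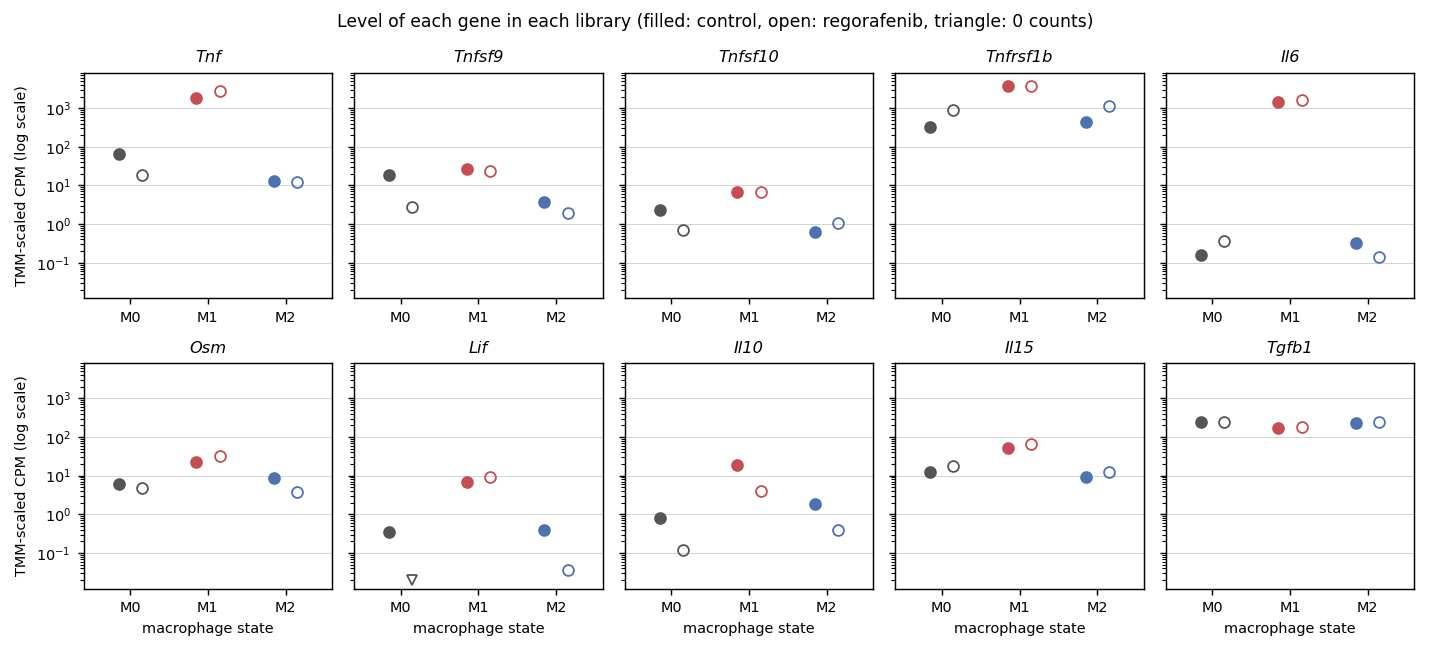
TMM-scaled CPM (log axis) of the 10 genes in M0, M1 and M2, with 1 point per library: filled points are control, open points regorafenib, and the triangle marks 0 counts. Tgfb1 stays between 174 and 250 CPM, Il6 is under 1 CPM outside M1, and the open point of Il10 lies below the filled one in each state.

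Members were read against the share of all genes called in the same comparison. Since the list was chosen with earlier results of these data known, a count above that share is a description only. With regorafenib in M0, 2 of the 10 genes were called higher (Tnfrsf1b and Il6) and 5 lower (Tnf, Tnfsf9, Tnfsf10, Il10 and Lif), while 9.47% of 13964 genes were higher and 10.9% lower. The Il6 interval held 0. In M1, 0 were higher and 1 was lower (Il10), where 1.76% of 13440 genes were higher and 3.46% lower. In M2, 1 was higher (Tnfrsf1b) and 4 were lower (Il10, Osm, Lif and Il6, the last with an interval that held 0), where 6.15% of 13813 genes were higher and 5.07% lower. The median log2 ratio of the 10 genes was −1.09 in M0, 0.12 in M1 and −0.52 in M2, while the median of all genes tested was 0.00 in M0, −0.02 in M1 and −0.03 in M2. Il10 was the gene called in each of the 3 states, but its M0 call (24 and 4 counts) was lost with 1 CPM added to both values (−0.67) or with a minimum of 50 counts. Whether the drug ratio of a gene differed between states was not tested, since there is 1 library per condition.

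**Figure D2:**
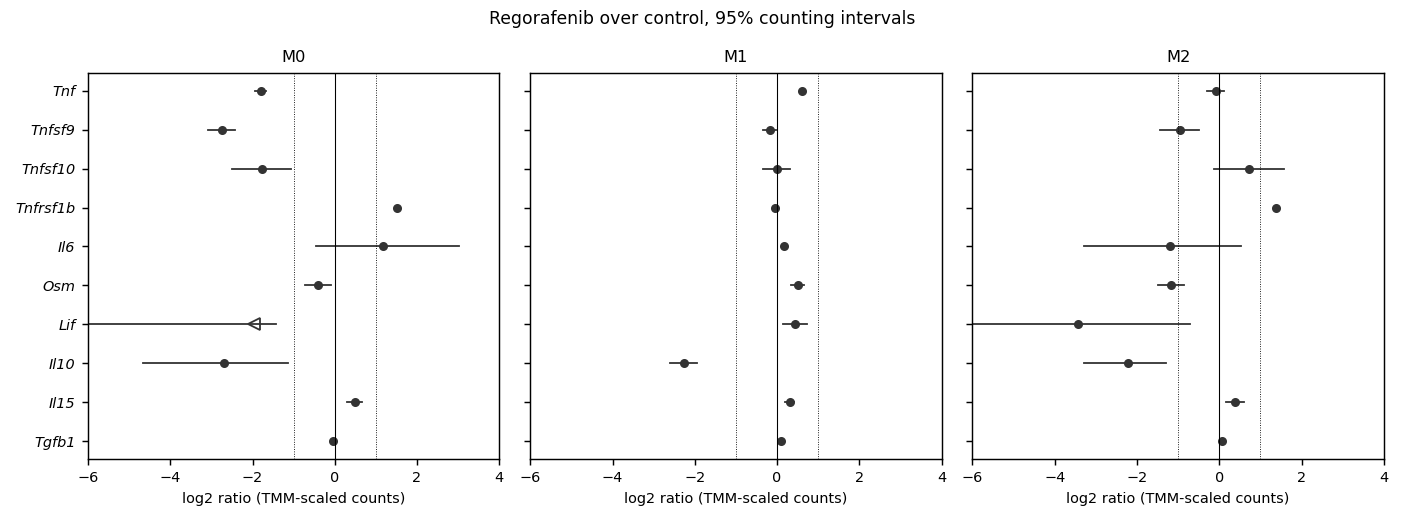
Log2 ratio of regorafenib to control for each gene in M0, M1 and M2, with the 95% counting interval as a line and dotted lines at 2-fold. The Lif triangle in M0 marks the bound against 3 counts, since the regorafenib library held 0, and lines end at the edge of the axis. Il10 lies left of the dotted line in each panel, and in M1 the other 9 genes lie within 2-fold.

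For polarization itself, in control cells, 8 of the 10 genes were called higher in M1 than in M0 and 0 lower, where 17.4% of 14168 genes were higher and 19.7% lower. In regorafenib-treated cells 9 were higher and 0 lower, where 16.3% of 14159 genes were higher and 21.6% lower. The exception in both arms was Tgfb1, joined in control cells by Tnfsf9. In M2 against M0, control cells had 2 genes called higher (Il10, and Il6 with an interval that held 0) and 3 lower (Tnf, Tnfsf9 and Tnfsf10), where 4.69% of 13830 genes were higher and 7.61% lower. With regorafenib, 9 genes could be tested, 1 was higher (Il10) and 1 lower (Il6), both with intervals that held 0, where 4.41% of 13841 genes were higher and 5.18% lower. M1 against M0 and M2 against M0 share the M0 library of their arm. Scaling by total counts in place of TMM moved the median log2 ratio of all genes in M1 against M0 by −0.44 in control and −0.41 in treated cells.

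**Figure D3:**
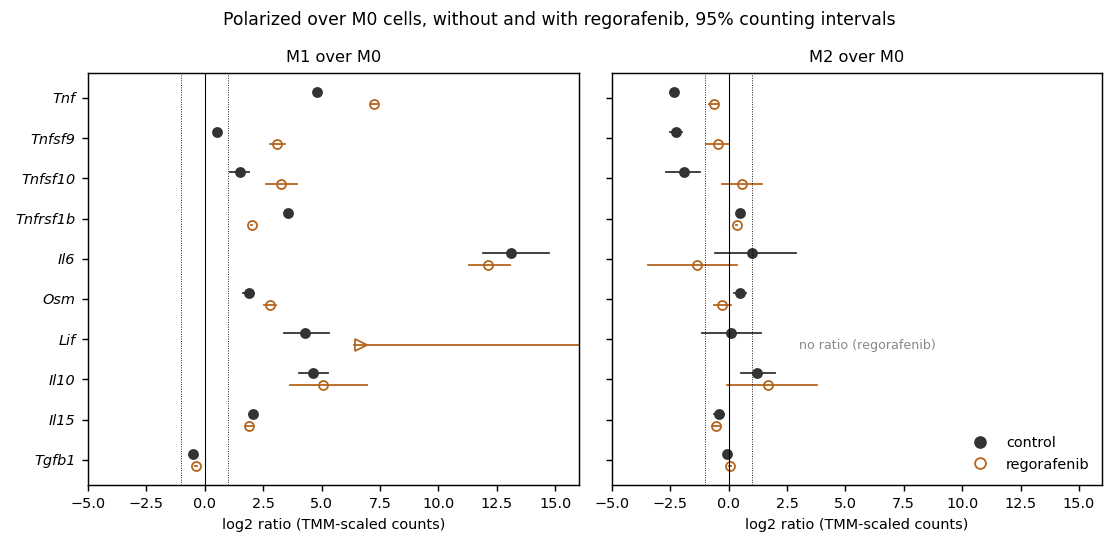
Log2 ratio of M1 (left) and M2 (right) to M0 for each gene, in control (filled) and regorafenib (open) cells, with 95% counting intervals as lines. The triangle for Lif marks the bound against 3 counts, and Lif has no ratio for M2 with regorafenib. Il6 lies above 12 in M1 for both arms, and Tnf, Tnfsf9 and Tnfsf10 lie left of the dotted 2-fold line in M2 only for the control arm.

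To test a shift shared by several libraries, edgeR's quasi-likelihood fit was run on all 6, with state and drug as terms. Its residual is the difference in drug response between states, not the spread of replicates. In a fit with a library left out, the drug coefficient comes only from the states that keep both libraries. With all 6 libraries, 0 of the 10 genes passed a Benjamini-Hochberg adjusted p of 0.05 for regorafenib, as did 0% of the 14110 genes tested (1637 genes had an unadjusted p under 0.05). Without the M1 control 726 of 14610 genes passed, and without M1 with regorafenib 814 of 14760. In this fit the coefficients of Il10 (−2.31, adjusted p = 0.263), Tnfsf9 (−1.24, adjusted p = 0.428), Tnfrsf1b (0.97, adjusted p = 0.410) and Lif (−0.83, adjusted p = 0.651) were the furthest from 0. That order is of this fit alone, since Lif was at −2.13 with DESeq2 (adjusted p = 0.350) and at −4.16 and −4.17 without the M1 control or M1 with regorafenib (edgeR). Tnfsf9 was at −0.51 with either M0 library left out and at −1.90 with either M1 library left out (edgeR). With DESeq2, 297 of 13289 genes passed and Il10 was among them (−2.33, adjusted p = 6.78e-06). In M1 against M0, 8 of the 10 genes passed in edgeR and all 8 were higher, where 36.7% of genes passed. Tgfb1 (−0.38, adjusted p = 0.112) and Tnfsf9 (1.76, adjusted p = 0.0709) did not, although Tnfsf9 passed in 6 of 9 alternative fits (1.79, adjusted p = 0.00798 with DESeq2). In M2 against M0, 416 of 13015 genes passed with DESeq2, and Tnf came nearest to passing among the 10 (−1.64, adjusted p = 0.0530). In edgeR, 0 of the 10 passed, where 0.198% of genes passed and Il10 had an adjusted p of 0.249. Without the M0 regorafenib library 2 of the 10 passed (Tnf and Tnfsf9), as did 294 of 14592 genes.

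Tnf (ENSMUSG00000024401.14, chromosome 17, 35199381 to 35202007, − strand, GRCm38) encodes the founding cytokine of its family. It held 2029 counts in the M0 control, 623 in M0 with regorafenib, 48221 in the M1 control, 68721 in M1 with regorafenib, 473 in the M2 control and 342 in M2 with regorafenib. Scaled, these were 66.1, 18.9, 1866, 2851, 13.0 and 12.2 CPM in the same order. The M1 libraries were the high ones by far, and the treated library was below its control in M0 and above it in M1. In M0, Tnf was 3.49-fold lower with regorafenib (log2 ratio −1.81, interval −1.94 to −1.68). In M1 it was 1.53-fold higher (0.61, interval 0.59 to 0.63), under the 2-fold limit. In M2 the ratio was −0.08 with an interval of −0.29 to 0.12, so that no difference was detectable at this depth. Tnf was 28.3-fold higher in M1 than in M0 in control cells and 151-fold higher in regorafenib-treated cells. M2 was 5.10-fold below M0 in control cells (log2 ratio −2.35) and 1.55-fold below in treated cells (−0.63). The shift in M1 over all 6 libraries was 6.01 on the log2 scale (edgeR, adjusted p = 0.00222). It was 5.05 without the M0 regorafenib library and 7.14 without the M0 control.

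The 3 genes whose profile over the 6 libraries lay nearest to that of Tnf, among 10665 genes compared, were Hcar2, Ms4a4c and Pilra. Likeness was the root mean square difference of log2(CPM + 1) after each gene was centred on its own mean, and it was 0.38, 0.43 and 0.45. Hcar2, a receptor for the ketone body β-hydroxybutyrate and niacin, held 120 and 71 counts in M0 (control and regorafenib), 5783 and 5855 in M1, with 23 and 22 in M2. Pilra, an inhibitory receptor of myeloid cells, held 268 and 101, 4939 and 5309, and 32 and 8 counts. These genes were thus high in M1 and low in M2, as was Tnf.

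Tnfsf9 (ENSMUSG00000035678.8, chromosome 17, 57105325 to 57107757) encodes 4-1BB ligand, which co-stimulates T cells. Its counts were 560 and 90 in M0, 682 and 563 in M1, with 140 and 55 in M2, control before regorafenib. The M0 regorafenib library stood well below its control, whereas the M1 pair lay close together. The ratio of regorafenib to control was −2.74 in M0 (interval −3.08 to −2.42), −0.18 in M1 (−0.34 to −0.01) and −0.96 in M2 (−1.44 to −0.50), just short of 2-fold. Control M1 and M0 cells differed by 0.53 on the log2 scale, while treated M1 and M0 cells differed by 3.10. Scaled by total counts, these differences were 0.09 and 2.68. Tnfsf9 was the only one of the 10 genes to overlap another gene: 192 of its 1290 exon bases (14.9%) are shared with Gm11110 on the opposite strand. Gm11110 itself held 50 to 577 counts, and which strand setting was used in counting is not given in the sources used here.

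Tnfsf10 (ENSMUSG00000039304.11, chromosome 3, 27317028 to 27342427) encodes TRAIL, a ligand that can trigger death of tumor cells. It was among the lowest of the 10 genes, with 73 and 23 counts in M0, 172 and 159 in M1, with 23 and 29 in M2. Control M0 cells and both M1 libraries were above the remaining 3. With regorafenib the M0 level was 3.41-fold lower (−1.77, interval −2.51 to −1.07), the M1 level was nearly equal (−0.01, interval −0.33 to 0.31, and 0.03 when scaled by total counts) and the M2 ratio was 0.72 (interval −0.12 to 1.57). Its M1 shift over the 6 libraries was 2.25 (edgeR, adjusted p = 0.0300), and it did not pass without the M0 regorafenib library (1.40, adjusted p = 0.0505), the M1 control (2.58, adjusted p = 0.0607) or the M1 regorafenib library (1.97, adjusted p = 0.0858).

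Tnfrsf1b (ENSMUSG00000028599.10, chromosome 4, 145213463 to 145246870) encodes TNF receptor 2, the receptor that lacks a death domain and is restricted mainly to immune and endothelial cells. Counts were 9839 and 29975 in M0, 96698 and 87571 in M1, with 16370 and 32402 in M2. The regorafenib library was about as far above its control in M2 as in M0, and the M1 pair did not show this. The gene was 2.84-fold higher with regorafenib in M0 (1.51, interval 1.47 to 1.54) and 2.58-fold higher in M2 (1.37, interval 1.34 to 1.40). In M1 the ratio was −0.04 (interval −0.06 to −0.03), and −0.00106 when scaled by total counts. M1 exceeded M0 by 11.7-fold in control cells and by 4.0-fold in treated cells, and the M1 shift over the 6 libraries was 2.89 (edgeR, adjusted p = 0.00531). That shift ran from 2.09 to 3.57 over the alternative fits. The drug coefficient over the 6 libraries was 0.97 (edgeR, adjusted p = 0.410), and it was 1.45 with either M1 library left out. Those fits draw it from the M0 and M2 pairs alone.

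Ratios inside 1 library need no scaling between libraries. Counts of Tnfrsf1b per count of Tnfrsf1a, the widely expressed TNF receptor 1, were 1.99 and 6.33 in M0, 21.7 and 29.1 in M1, with 3.38 and 9.95 in M2, control before regorafenib. The receptor balance was therefore further toward Tnfrsf1b in the treated library of each state, and the intervals of each pair did not meet (for M1, 21.0 to 22.3 against 28.1 to 30.2). Tnfrsf1a itself held 4935 and 4733 counts in M0, 4464 and 3008 in M1, with 4848 and 3258 in M2. In M1 the balance thus moved with fewer Tnfrsf1a counts, since Tnfrsf1b was not higher there. Counts of Tnf per count of Tnfrsf1b were 0.206 and 0.0208 in M0, 0.499 and 0.785 in M1, with 0.0289 and 0.0106 in M2. Ligand relative to receptor was thus lower with regorafenib in M0 and M2 and higher in M1.

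Other TNF superfamily genes showed no single direction. Of 15 further ligands, 9 were tested in each drug comparison, with 3 called higher and 1 lower in M0, against 9.47% and 10.9% of all genes. In M1, 1 was higher and 1 lower (1.76% and 3.46% of all genes), and in M2, 1 was higher and 2 were lower (6.15% and 5.07%). In M0, Ltb, which encodes lymphotoxin β, went from 47 to 172 counts (1.77), Tnfsf13b, which encodes the B cell factor BAFF, from 120 to 266 (1.05), and Tnfsf14, which encodes LIGHT, from 153 to 48 (−1.77). The list median was −0.03 in M0, 0.21 in M1 and −0.54 in M2. Of 26 further receptors, 16 were tested in M0, with 2 called higher and 5 lower, 18 in M1, with 1 higher and 1 lower, and 15 in M2, with 2 higher and 3 lower. Read against the same shares, the 2 higher in M0 are near the background of 9.47%. In M0, Fas, the death receptor, went from 204 to 479 counts (1.13), and Tnfrsf10b, the TRAIL receptor, from 327 to 96 (−1.87). In M2, Cd40 went from 260 to 55 counts (−1.86), Tnfrsf10b from 321 to 100 (−1.30) and Tnfrsf14, which encodes the LIGHT receptor HVEM, from 209 to 425 (1.41). In M1, Tnfrsf13b, which encodes the BAFF receptor TACI, went from 155 to 345 counts (1.25) and Tnfrsf23 from 2305 to 1011 (−1.09), while Cd40 was under 2-fold (8957 and 15600 counts, 0.90). Of 12 genes that carry or limit the TNF receptor signal, 2 were called higher in M0, 0 in M1 and 1 in M2, and 0 were called lower. Birc3, which encodes the ubiquitin ligase cIAP2, was higher in M0 (934 to 2632 counts, 1.39) and in M2 (656 to 1574 counts, 1.65). Over the 6 libraries, the M1 shift passed in edgeR for 7 of these 12 genes, all higher, for 6 of 9 ligands (3 higher and 3 lower) and for 9 of 18 receptors (7 higher and 2 lower), where 36.7% of all genes passed. The regorafenib coefficient passed for 0 of them.

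Il6 (ENSMUSG00000025746.11, chromosome 5, 30013114 to 30019981) encodes the fever and acute-phase cytokine. It held 5 and 12 counts in M0, 37404 and 39074 in M1, with 12 and 4 in M2. Outside M1 the gene was thus at or near the limit of detection in all 4 libraries, with 0.143 to 0.364 CPM. The M1 level was 1448 CPM in control and 1621 CPM in treated cells, a ratio of 0.16 (interval 0.14 to 0.18). In M0 and M2 the drug ratios were 1.16 and −1.20 and both intervals held 0 (−0.45 to 3.02 and −3.29 to 0.52). M1 exceeded M0 by 13.12 on the log2 scale in control cells (interval 11.90 to 14.74) and by 12.12 in treated cells (11.32 to 13.07), and these intervals overlap. Over the 6 libraries the M1 shift was 12.54 (edgeR, adjusted p = 0.000225).

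The genes nearest to Il6 in profile were Cxcl3, Lcn2 and Ccl5, with root mean square differences of 0.09, 0.11 and 0.29. Cxcl3, a neutrophil-attracting chemokine, held 11 and 22 counts in M0, 46563 and 40928 in M1, with 19 and 7 in M2. Lcn2, the iron-siderophore binding protein lipocalin-2, held 7 and 12, 32293 and 38099, and 6 and 4 counts. Both were near absent outside M1 and within 2-fold between the M1 libraries.

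Osm (ENSMUSG00000058755.3, chromosome 11, 4236420 to 4241026) encodes oncostatin M. Its counts were 191 and 154 in M0, 592 and 783 in M1, with 316 and 108 in M2. The M2 regorafenib library was the lowest and the M1 regorafenib library the highest. The drug ratio was −0.41 in M0 (interval −0.73 to −0.10), 0.50 in M1 (0.35 to 0.66) and −1.16 in M2 (−1.49 to −0.85). The M1 shift over the 6 libraries was 2.45 (edgeR, adjusted p = 0.00746). It was 1.75 without the M1 regorafenib library and 3.04 without the M1 control.

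Lif (ENSMUSG00000034394.14, chromosome 11, 4257557 to 4272514) encodes leukemia inhibitory factor and lies beside Osm on chromosome 11. It held 11 and 0 counts in M0, 178 and 224 in M1, with 14 and 1 in M2. The treated M0 and M2 libraries were at or under the floor of 3 counts, and the M1 libraries were the only ones above 100. Against that floor Lif was at least 3.93-fold lower with regorafenib in M0, and in M2 the ratio was −3.42 with a wide interval of −8.83 to −0.71. In M1 it was 0.43 (interval 0.14 to 0.72). M1 exceeded M0 by 19.2-fold in control cells and by at least 102-fold in treated cells, and the M1 shift over the 6 libraries was 5.80 (edgeR, adjusted p = 0.00895). That shift was 10.84 without the M0 control and 9.01 without the M1 control, and from 4.4 to 5.71 without any other library. Counts of Lif per count of Osm were 0.301 in the M1 control and 0.286 in M1 with regorafenib (intervals 0.253 to 0.356 and 0.245 to 0.332). In M0 the counts were 11 of Lif and 191 of Osm in control cells and 0 and 154 in treated cells, and in M2 they were 14 and 316 against 1 and 108, too few Lif counts in treated cells to give a proportion.

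Of 5 further IL-6 family ligands, 3 were tested with regorafenib in M0, with 1 called higher (9.47% of all genes), and 2 in each of M1 and M2, with 0 called. The called gene was Ctf1, named here after its values were seen, and the call rests on few counts (5 and 13 in M0). Il6, with 5 and 12 counts in the same libraries, had an interval that held 0. Il27, which encodes a subunit of IL-27, held 1269 and 2018 counts in M1 (0.77). The 7 receptor genes of the family had 5 tested in each drug comparison, with 0 called in M0, 1 lower in M1 (3.46% of all genes) and 0 called in M2. Il6ra, the IL-6 binding chain, held 2345 and 4711 counts in M0 (0.90), and Il6st, which encodes gp130, held 3853 and 4554 (0.14). For M1 against M0 over the 6 libraries, 4 of 5 receptor genes passed in edgeR and all were lower, while 2 of 3 ligands were higher, where 36.7% of all genes passed. Of 10 genes of the JAK-STAT3 pathway and its feedback, 9 passed for M1 and all were higher. Socs3, a feedback inhibitor of gp130 signalling, went from 159 to 23535 counts in control cells (7.46). With regorafenib, 0 of the 10 were called higher and 2 lower in M0, 1 higher and 0 lower in M1, and 3 higher and 0 lower in M2, against the shares of all genes above (9.47% and 10.9% in M0, 1.76% and 3.46% in M1, 6.15% and 5.07% in M2). Cish was higher in M1 (269 to 982 counts, 1.97) and in M2 (241 to 533 counts, 1.53).

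Il10 (ENSMUSG00000016529.5, chromosome 1, 131019845 to 131024974) encodes the main cytokine that restrains macrophage activation. Counts were 24 and 4 in M0, 497 and 96 in M1, with 67 and 11 in M2. The treated library was below its control in all 3 states, and the levels ran from M0 through M2 to M1 within each arm. Scaled levels were 0.781 and 0.121 CPM in M0, 19.2 and 3.98 in M1, with 1.84 and 0.393 in M2. With regorafenib Il10 was 6.44-fold lower in M0 (−2.69, interval −4.67 to −1.15), 4.83-fold lower in M1 (−2.27, interval −2.60 to −1.95) and 4.67-fold lower in M2 (−2.22, interval −3.29 to −1.29). The 3 intervals overlap. M1 exceeded M0 by 24.6-fold in control cells and by 32.8-fold in treated cells, with log2 ratios of 4.62 (interval 4.03 to 5.28) and 5.04 (3.63 to 6.94). M2 exceeded M0 by 1.23 in control cells (interval 0.54 to 1.97) and by 1.70 in treated cells (−0.06 to 3.80). The M1 shift over the 6 libraries was 4.78 (edgeR, adjusted p = 0.000644). The M0 and M2 values rest on few counts. With the M1 control or the M1 regorafenib library left out, the drug coefficient was −2.35 in each fit. Both fits draw it from those M0 and M2 pairs alone.

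Tnf and Il6 were also set against Il10 inside each library. Counts of Tnf per count of Il10 were 84.5 and 156 in M0, 97.0 and 716 in M1, with 7.06 and 31.1 in M2. The intervals were separate in M1 (88.8 to 106 against 586 to 884) and in M2 (5.46 to 9.26 against 17.2 to 62.9), but overlapped in M0 (56.7 to 132 against 60.5 to 573). Counts of Il6 per count of Il10 in M1 were 75.3 in control cells (68.9 to 82.4) and 407 in treated cells (333 to 503). In M0 they were 0.208 (0.0621 to 0.557) and 3.0 (0.909 to 12.8), with separate intervals, and in M2 0.179 (0.0882 to 0.334) and 0.364 (0.0844 to 1.23), with overlapping intervals, from 4 to 12 counts of Il6 per library. Among the neutrophil markers, S100a8 also had fewer counts in treated M1 cells (1804 and 489). In the same libraries Mpo held 2144 and 2064 counts, Camp 108 and 91, and S100a9 3 and 1, while Ly6g and Elane were at 0. The part of these markers in the Il10 values was not tested.

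The genes nearest to Il10 in profile were Itga9, Rgcc and Dpy19l3 (0.39, 0.40 and 0.41). Itga9, an integrin chain, held 72 and 75 counts in M0, 953 and 370 in M1, with 173 and 31 in M2. Rgcc, a regulator of the cell cycle, held 44 and 17, 356 and 192, and 71 and 21. Among 10 further genes of the IL-10 family and its receptors, 3 were tested in M0, with 1 called higher (9.47% of all genes), 4 in M1, with 1 lower (3.46%), and 3 in M2, with 0 called. The gene lower in M1 was Il19, a cytokine of the family (73 to 17 counts), named here after its values were seen. The gene higher in M0 was Il10ra, the IL-10 binding chain, which held 2595 and 7366 counts in M0 (1.40), 5062 and 5721 in M1 (0.28), with 2583 and 3716 in M2 (0.91), and so was above its control in each state where Il10 itself was below. Il10rb, the shared second chain, held 3542 and 4325 in M0 (0.19), 2624 and 2205 in M1 (−0.15), with 6585 and 4151 in M2 (−0.28).

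Il15 (ENSMUSG00000031712.10, chromosome 8, 82331632 to 82403222) encodes a cytokine that sustains NK and memory CD8+ T cells and is presented on its own receptor chain. It held 387 and 580 counts in M0, 1362 and 1568 in M1, with 341 and 342 in M2. Each treated library was slightly above its control after scaling, by 0.48 in M0 (interval 0.29 to 0.67), 0.30 in M1 (0.20 to 0.41) and 0.39 in M2 (0.17 to 0.61), all under 2-fold. The drug coefficient over the 6 libraries was 0.40 (edgeR, adjusted p = 0.409), and the M1 shift was 2.03 (adjusted p = 0.00110). Counts of Il15 per count of Il15ra were 3.0 and 2.84 in M0, 1.44 and 1.60 in M1, with 3.88 and 2.67 in M2, so that the receptor chain made up more of the pair in M1. Of 12 further genes of the IL-15 and γ-chain group, 6 were tested in M0, 7 in M1 and 6 in M2. Called with regorafenib were Il4ra in M0 (941 to 2123 counts, 1.07) and Il2ra, the high-affinity IL-2 receptor chain, in M1 (35 to 195 counts, 2.58), where 9.47% and 1.76% of all genes were called higher.

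Tgfb1 (ENSMUSG00000002603.15, chromosome 7, 25687002 to 25705077) was the steadiest of the 10 genes. Counts were 7522 and 7891 in M0, 4492 and 4448 in M1, with 8634 and 6986 in M2, or 245 and 239, 174 and 185, and 236 and 250 CPM. The drug ratio was −0.03 in M0 (interval −0.08 to 0.01), 0.09 in M1 (0.03 to 0.15) and 0.08 in M2 (0.03 to 0.12). M1 was below M0 by a log2 ratio of −0.49 in control and −0.38 in treated cells. Scaled by total counts, these ratios were −0.94 and −0.79. Of 19 further genes of TGF-β production, activation and reception, 16 were tested in M0, with 7 called higher and 0 lower (9.47% and 10.9% of all genes), and 16 in M2, with 3 higher and 0 lower (6.15% and 5.07%). In M1, 15 were tested and 0 were called. Fibroblast markers were higher in the same M0 pair: all 5 had more counts with regorafenib, their sum went from 98 to 336, Col1a1 from 37 to 114 and Col1a2 from 46 to 188. In M2 the sum was 130 in control and 161 in treated cells, the latter in the smaller library, and the part of these cells in the list was not tested. The list median was 0.74 in M0, −0.07 in M1 and 0.61 in M2. Thbs1, which encodes the latent TGF-β activator thrombospondin-1, went from 62 to 334 counts in M0 (2.33). Ltbp3, a latent TGF-β binding protein, went from 556 to 1371 in M0 (1.20) and from 530 to 959 in M2 (1.24), and Tgfbr1, the type I receptor, from 3178 to 7302 in M0 (1.10). In M2, Lrrc32, which encodes the latent TGF-β anchor GARP, went from 62 to 158 (1.73). Over the 6 libraries the drug coefficient passed for 0 of 18 of these genes, and the M1 shift for 10 (5 higher and 5 lower), where 36.7% of all genes passed.

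All 8 genes for proteins that control decay or stability of cytokine mRNA were tested. With regorafenib 1 was called in M0 and 1 in M2, in both cases Zfp36l1, a relative of tristetraprolin (324 to 1267 counts in M0, 1.87, and 980 to 1523 in M2, 1.02). In the same comparisons 9.47% and 6.15% of all genes were called higher. Zfp36 held 4270 and 2349 counts in M1, a ratio of −0.76 (interval −0.84 to −0.69). Zc3h12a, which encodes the ribonuclease regnase-1 that cleaves Il6 mRNA, held 506 and 878 counts in M0 (0.69) and was 3.86 higher on the log2 scale in M1 than in M0 control cells. Over the 6 libraries the M1 shift passed for 4 of the 8 genes, 3 higher and 1 lower, where 36.7% of all genes passed.

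**Figure D4:**
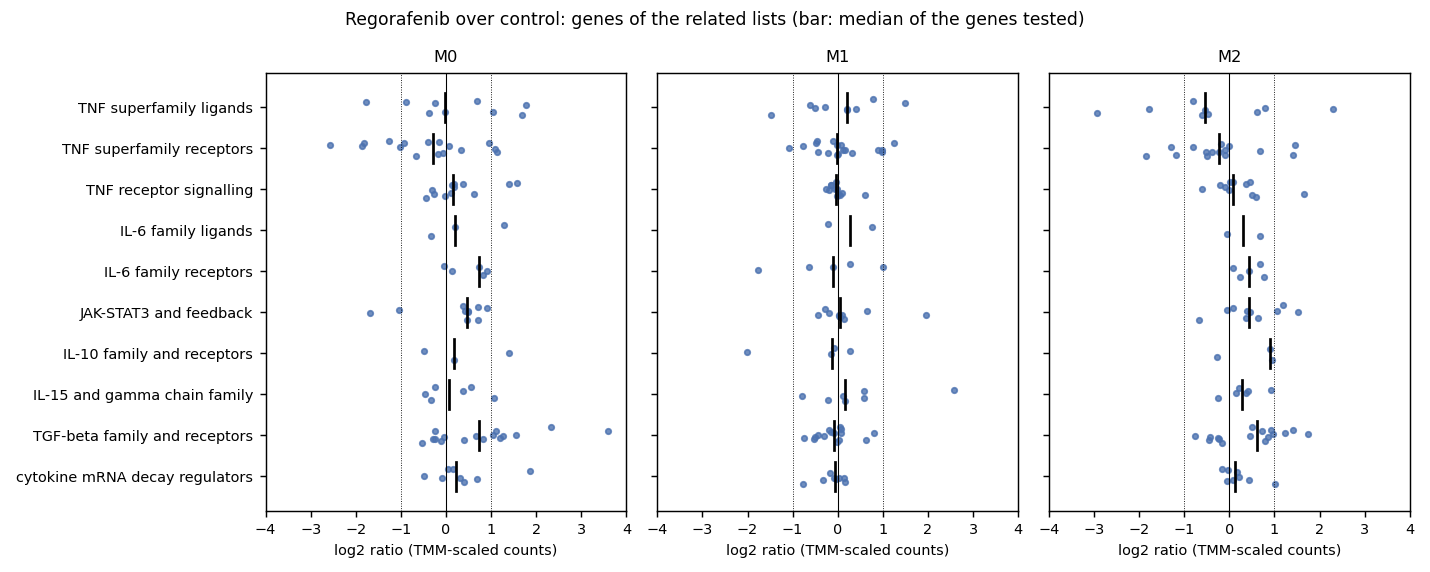
Log2 ratio of regorafenib to control in M0, M1 and M2 for the tested genes of 10 related lists without the 10 cytokine genes (1 point per gene, vertical jitter only), with the list median as a bar and dotted lines at 2-fold. The median of the TGF-β list lies right of 0 in M0 and M2 (0.74 and 0.61) and near 0 in M1 (−0.07).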

How the data were processed

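The 6 libraries were made with a stranded mRNA kit. The authors deposited raw read counts per gene. Per the labels and the study's methods, reads were trimmed with cutadapt 2.4, then mapped to GRCm38 and counted on Gencode M19 with STAR 2.7.2a. Which strand column was taken is not given in the sources used here. The deposited counts are whole numbers with unequal totals, so no normalization had been applied. Names and positions came from Gencode M21 on GRCm38: of 54446 IDs, 53229 matched with their version and 1180 without it, and 37 had no name.

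Counts were scaled with TMM over the 6 libraries (edgeR 4.0.16, R 4.3.3; factors 0.820 to 1.12), with 0 replaced by 0.5 in a ratio. Intervals are 95% conditional exact binomial intervals. Genes with 3 or fewer counts in both libraries got no ratio, and a count of 0 gave a bound against 3 counts. The shift over all libraries was fitted with edgeR's quasi-likelihood test on the genes kept by filterByExpr (Benjamini-Hochberg adjustment), with DESeq2 1.42.0 as an alternative. NOISeq was not run, since its probability without replicates rests on simulated ones. Other steps used matplotlib 3.10.9, pandas 2.3.3, scipy 1.17.1 and numpy 2.4.6 in Python 3.11.15. The intervals and the fit were also run on simulated counts. Those for the fit had the same drug fold in every state, unlike the differing responses that form its residual here. Alternatives were other scalings, minimum counts and fold limits, 1 CPM added, and leaving out each library.

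All 10 cytokine genes are named. In each related list and comparison, up to 4 genes could be named, those with the largest ratios whose higher library reached 100 counts, and for Tnf, Il6 and Il10 the 3 nearest profiles. Tnfrsf1a and Il15ra are named as partners in within-library ratios. The 10 genes and the lists were chosen with earlier results of these data known.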

Additional observations from a re-analysis of the deposited data

Results flagged for a closer look

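In 6 cases the log2 ratio of regorafenib to control had opposite signs in a pair of states and differed by at least 2-fold, with each ratio's counting interval on its own side of 0. None of the 6 differences was tested, since each state has 1 library per arm. For Tnf the ratio was −1.81 in M0 and 0.61 in M1, a difference of 2.42 (M1 minus M0). For Osm it was 0.50 in M1 and −1.16 in M2, a difference of −1.67 (M2 minus M1). For Lif, M0 with regorafenib held 0 counts, and against the floor of 3 counts the difference was at least 2.41 (M1 minus M0). The value of 4.99 that follows from replacing 0 by 0.5 depends on that choice. From M1 (0.43) to M2 (−3.42, interval −8.83 to −0.71, from 14 counts and 1 count) the Lif difference was −3.86 (M2 minus M1), and that count is under the floor of 3. For the TNF receptor gene Tnfrsf1b the ratio went from 1.51 in M0 to −0.04 in M1, a difference of −1.55 (M1 minus M0), and to 1.37 in M2, a difference of 1.41 (M2 minus M1). The M1 ratio of Tnfrsf1b was −0.00106 when scaled by total counts, with an interval of −0.0143 to 0.0121 that holds 0, so neither Tnfrsf1b case is an opposite sign past counting error under that scaling.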

How the results depend on the processing

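No paired analysis was possible because no condition has replicates, apart from the fit over 6 libraries, in which state is the block for the drug. The count of genes called with regorafenib in M0 went from 7 to 3 with 1 CPM added, 4 with a minimum of 50 counts and 3 with a 4-fold limit, and in M2 from 5 to 2, 3 and 2. In M2 against M0 it went from 5 to 3 with 1 CPM added and 2 with the 4-fold limit in control cells, and from 2 to 0 in treated cells under all 3 settings. By construction these settings drop genes with few counts or small ratios. Counts in M1 and under the other scalings stayed within 1.5 times. Over the 6 libraries, 1 gene passed for regorafenib with DESeq2 and 1 without a filter on low counts (Il10 in both, adjusted p = 6.78e-06 and 0.00156), and 1 passed for M2 against M0 without that filter (Tnf, adjusted p = 0.0444). Leaving out 1 library gave 0 to 2 genes for regorafenib, 7 to 9 for M1 and 0 to 2 for M2. The regorafenib coefficient changed sign with a library left out for Tnf (−0.96 to 0.29), Il6 (−0.0622 to 0.41), Osm (−0.77 to 0.0679) and Tnfsf10 (−0.80 to 0.30), none of which passed. For M1, Tnfsf9 passed in 6 of 9 alternatives (coefficients 0.77 to 2.99, adjusted p from 0.000650 to 0.235) and Tnfsf10 in 6 of 9 (1.40 to 3.45, adjusted p from 0.00149 to 0.0858). For regorafenib, the coefficient with either M1 library left out was −2.35 for Il10 and 1.45 for Tnfrsf1b. Both of these fits rest on the M0 and M2 pairs alone, so they are not separate alternatives. Of the other values, 167 of 207 log2 ratios stayed within their counting intervals. Depth limits the ratios of Il6 and Lif outside M1 and of Il10 in M0 and M2.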
